A study of Mus musculus with 12 samples.

Results

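The 10 genes described here encode carriers that move amino acids across the plasma membrane of C2C12 myoblasts, an established mouse line of muscle precursor cells. They were taken by symbol: Slc7a1, Slc7a3, Slc7a5, Slc7a11, Slc3a2, Slc38a1, Slc38a2, Slc1a4, Slc1a5 and Slc6a9. All 10 were found, each in 1 of the 26271 loci of the authors' deposited table, and all 10 were tested there in every comparison. The cells had been kept for 24 h in DMEM of 3 kinds: with glucose at 25 mM (high glucose), with glucose at 5 mM (low glucose), or with 10 mM galactose and no stated glucose (galactose). All 3 media shared 1 mM pyruvate, 10% fetal bovine serum and 1% penicillin/streptomycin. PolyA RNA was sequenced from 4 libraries per medium, 12 in all, and the labels do not say whether these were separate cultures. The design text of the series describes single muscle stem cells and a longer culture time, but the sample labels name C2C12 and 24 h and were followed.

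The authors' deposited table holds 1 pooled value per medium for each locus, in FPKM (fragments scaled to transcript length and to sequencing depth), so no SD or spread between libraries stands beside any value and the depth is unknown. FPKM is a level per length, so genes can be set side by side on it. A gene was called higher or lower where the authors' own test gave a q-value below 0.05. Their lowest possible q was 0.000239. The p- and q-values describe these libraries only.

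Amino acid carriers work by charge and size class. SLC7A1 and SLC7A3 (CAT1 and CAT3) carry arginine and lysine. SLC7A5 (LAT1) and SLC7A11 (xCT) are light chains that reach the surface joined to the heavy chain SLC3A2 (4F2hc, CD98): the first exchanges large neutral amino acids such as leucine, the other exchanges cystine for glutamate and feeds glutathione synthesis. SLC38A1 and SLC38A2 (SNAT1 and SNAT2) take up glutamine and alanine with sodium, SLC1A4 and SLC1A5 (ASCT1 and ASCT2) exchange alanine, serine, cysteine and, for the second, glutamine, and SLC6A9 (GLYT1) takes up glycine. In many cells a shortage of amino acids activates the kinase GCN2 and the transcription factor ATF4, which raises transcription of several of these genes. Leucine that enters through such carriers is one signal to the growth kinase complex mTORC1.

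All of the genes except Slc38a2 rose when glucose was lowered and also from high glucose to galactose, whereas Slc38a2 did not rise in any comparison. From high to low glucose 9 of 10 were called higher and 0 lower, against 18.3% of all tested loci called higher and 18.2% called lower. Their median log2 fold change was 0.92 beside 0.0069 for all tested loci, in the authors' deposited table. At an unadjusted p below 0.05 in the authors' Cuffdiff test, Slc38a2 would count as lower (p = 0.032). From high glucose to galactose 9 of 10 were called higher and 1 lower, against 26.5% and 24.8% of all tested loci, and the median was 1.74 beside 0.0058. From low glucose to galactose 8 of 10 were called higher, 1 lower and 1 was not called, against 17.4% and 16.0% of all tested loci, with medians of 0.64 and 0.010. When a log2 fold change of 1 or more was required as well, 3, 9 and 3 of 10 were called higher in these 3 comparisons, against 0.864%, 3.27% and 1.69% of all tested loci, and 0 were called lower, against 2.45%, 5.16% and 1.17%. The comparisons share groups and are not independent. The genes were listed with earlier results of these data known, so the counts describe them and are no test of the list.

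**Figure D1:**
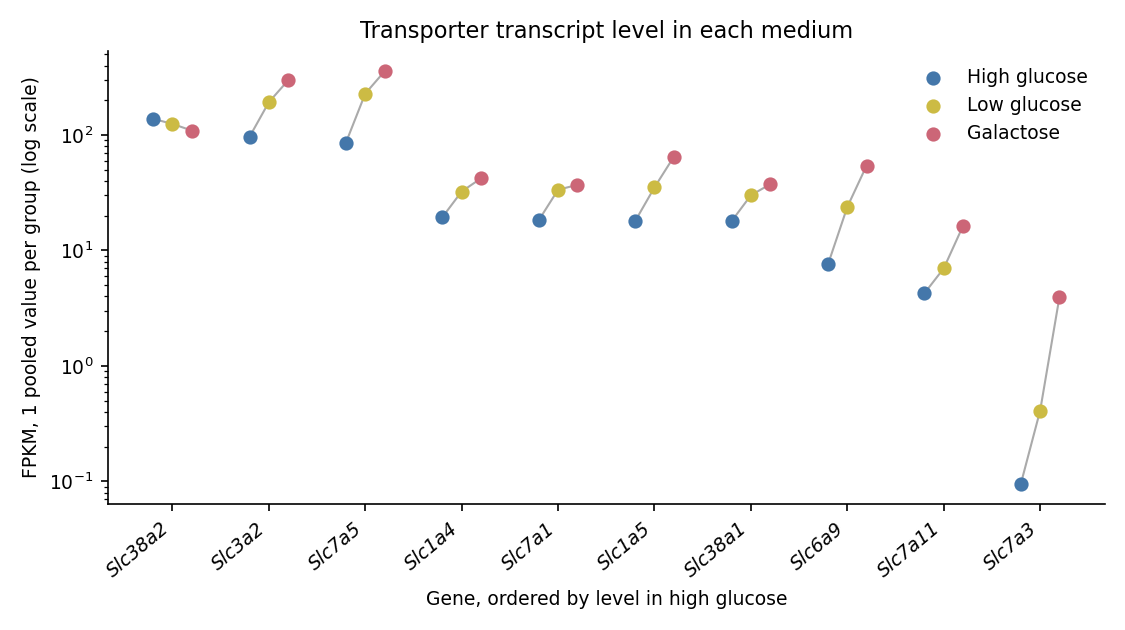
The plot shows the FPKM of each gene (log scale) in high glucose, low glucose and galactose, 1 pooled value per medium with a line joining the 3 media of a gene. All lines climb except that of Slc38a2, which goes from 138 down to 109.6 FPKM.

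The order of the levels changed with the medium. In high glucose, per the authors' deposited table, Slc38a2 led with 138 FPKM, followed by Slc3a2 with 96.5 and Slc7a5 with 86.1. A middle set of Slc1a4, Slc7a1, Slc1a5 and Slc38a1 lay between 18.0 and 19.4 FPKM, and with no spread between libraries their order cannot be told. The authors' deposited table placed Slc6a9, Slc7a11 and Slc7a3 last, with 7.60, 4.26 and 0.0954 FPKM. In galactose Slc7a5 led with 357 FPKM, Slc3a2 came next with 298, and Slc38a2 was the third with 109.6 FPKM. The middle set had spread out by then, and the authors' deposited table gave 64.7 FPKM for Slc1a5 and 37.1 for Slc7a1. Slc6a9, from the eighth place, had passed Slc1a4, Slc38a1 and Slc7a1. Summed over the 10 genes, the level was 407 FPKM with high glucose, 709 with low glucose and 1020.2 with galactose. Slc38a2 made up 34.02%, 17.6% and 10.7% of that sum, and Slc7a5 21.2%, 32.3% and 34.9%.

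Among the carriers of basic amino acids, both members rose when glucose was lowered, and Slc7a3 alone was called again from low glucose to galactose. Slc7a1 (locus XLOC_018408, minus strand of chromosome 5, 148327410 to 148399904, mm10) was given by the authors' deposited table as 18.3 FPKM with high glucose, 33.6 with low glucose and 37.1 with galactose. Low and high glucose differed by a log2 fold change of 0.88 (q = 0.000239, the authors' Cuffdiff test), while low glucose and galactose differed by 0.14, which was not called (q = 0.0752). Low glucose thus held 86.1% of the log2 change seen from high glucose to galactose, more than for any other of the 10 genes. Slc7a3 (XLOC_025739, minus strand of chromosome X, 101079221 to 101085609) had, per the authors' deposited table, 0.0954, 0.410 and 3.94 FPKM on the same media. Both high-glucose and low-glucose values were under 1 FPKM, and only in galactose did it exceed that level.

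The fold of Slc7a3 rests on a very low starting level. Galactose was 41.3-fold above high glucose in the authors' deposited table (log2 5.37, q = 0.000239), and with 1 FPKM added to both groups the log2 change was 2.17. From high to low glucose the log2 change was 2.10, or 0.36 with 1 FPKM added, and from low glucose to galactose it was 3.26, or 1.81 with 1 FPKM added. The share of the total reached in low glucose was 39.2%, or 16.8% with 1 FPKM added. In galactose Slc7a1 still had the higher level of the pair. Slc7a2, the third cationic carrier expressed here, went the other way, and the authors' deposited table listed it at 5.75, 3.98 and 4.09 FPKM. It was called lower in low glucose (q = 0.0168) and in galactose (q = 0.0374) against high glucose. Summed over these 3 genes, the level was 24.2, 38.0 and 45.1 FPKM, of which Slc7a1 made up 75.8%, 88.4% and 82.2%.

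The heavy chain gene and its 2 listed light chain genes rose at every step. In the authors' deposited table Slc3a2 had 96.5 FPKM with high glucose, 193 with low glucose and 298 with galactose. Slc7a5 (XLOC_023297, minus strand of chromosome 8, 121881013 to 121907708) had 86.1, 229 and 357 FPKM there. Its log2 changes were 1.41 from high to low glucose and 0.64 from low glucose to galactose, both called (q = 0.000239, the authors' Cuffdiff test). Slc3a2 had log2 changes of 0.996 (q = 0.000239) and 0.63 (q = 0.00143) over the same steps. The ratio of Slc7a5 to Slc3a2 was 0.892 with high glucose, 1.19 with low glucose and 1.20 with galactose. No test of this ratio was possible without values per library, and it rests on the level of a locus wider than the Slc3a2 gene, described next.

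The locus named Slc3a2 (XLOC_011680) is wider than its gene. In the authors' deposited table it runs from 8706882 to 9077294 on chromosome 19, 370413 bases, whereas the GENCODE M21 gene, on the minus strand of the same build, ends at 8723369. That span also covers 30 other protein-coding genes on both strands. The 15 overlapping loci that reached 1 FPKM had galactose to high glucose ratios from 0.897 to 1.49, against 3.09 for Slc3a2. Whether the FPKM listed for Slc3a2 includes reads from the rest of the span was not tested, so its level relative to the light chain genes is uncertain. The authors' test score, which grows with the change relative to the tool's own error, was 2.26 for Slc3a2 from high to low glucose, beside 6.60 for Slc1a5 with a similar log2 change of 0.97.

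Slc7a11 (XLOC_014850, minus strand of chromosome 3, 50364936 to 50443613) split its change between the 2 steps differently from Slc7a5. The level that the authors' deposited table gave was 4.26 FPKM on high glucose, 7.004 on low glucose and 16.3 on galactose. The log2 change from low glucose to galactose, 1.22, was larger than that from high to low glucose, 0.72, and both were called (q = 0.000239, the authors' Cuffdiff test). Slc7a11 had reached 37.0% of its total log2 change in low glucose, and 35.2% with 1 FPKM added to each value, while Slc7a5 had reached 68.7% and 68.6%. Slc7a6, a further partner of Slc3a2 and named here after its values were seen, was not called in any comparison, and the authors' deposited table listed it at 12.5, 13.8 and 13.6 FPKM. The remaining partners Slc7a7, Slc7a8 and Slc7a10 were under 1 FPKM in all media. Over all 6 light chain genes the summed level was 103, 250 and 387 FPKM, that is 1.07, 1.30 and 1.30 per FPKM of Slc3a2, with Slc7a5 at 83.5%, 91.6% and 92.2% of the sum.

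**Figure D2:**
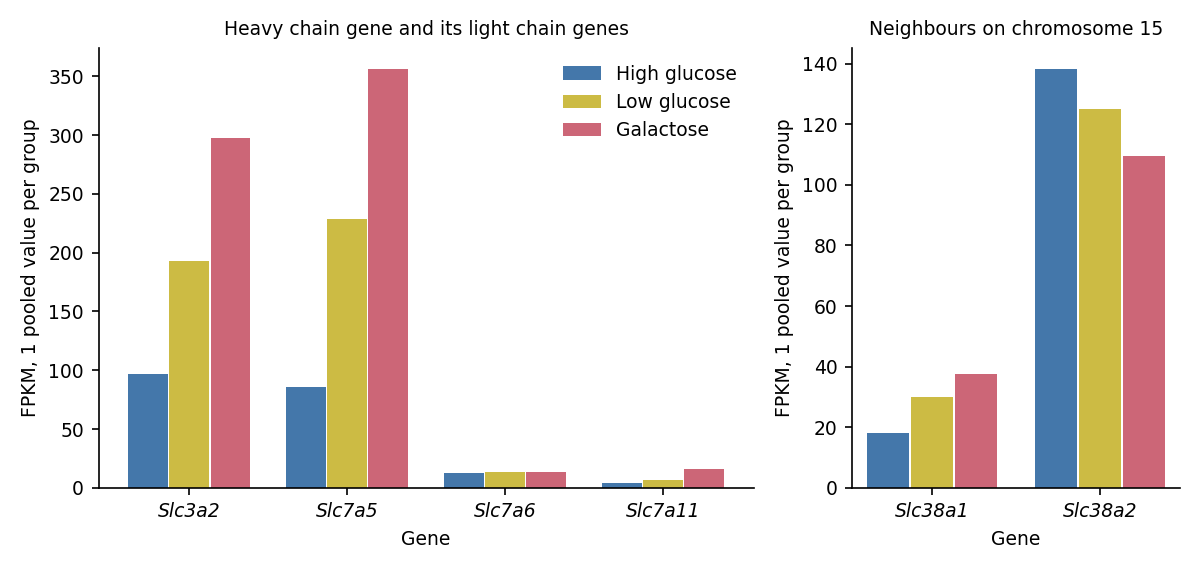
Bars give FPKM from 0, 1 pooled value per medium, for Slc3a2 and 3 light chain genes (left) and for Slc38a1 and Slc38a2 (right), on separate axes. Slc3a2, whose locus in the table is wider than the gene, and Slc7a5 have the tallest bars in the left panel, and Slc38a1 climbs from 18.0 to 37.5 FPKM while Slc38a2 declines.

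The 2 sodium-coupled glutamine carriers moved in opposite directions although they are neighbours. Slc38a1 (XLOC_008242) and Slc38a2 (XLOC_008243) both lie on the minus strand of chromosome 15, from 96571213 to 96642913 and from 96687383 to 96699977, with 44469 bases between the loci. The authors' deposited table listed Slc38a1 at 18.0, 30.1 and 37.5 FPKM (high glucose, low glucose, galactose), and both steps were called, with log2 changes of 0.74 and 0.32 (q = 0.000239, the authors' Cuffdiff test). Slc38a2 was listed there at 138, 125 and 109.6 FPKM in the same order. High and low glucose did not pass the test for Slc38a2 (log2 fold change -0.15, q = 0.0735), while its level fell from high glucose to galactose (-0.34, q = 0.000239) and from low glucose to galactose (-0.19, q = 0.0127). The last call ended at q below 0.01. Slc38a2 remained the more abundant of the pair, at 7.70 times Slc38a1 with high glucose, 4.15 times with low glucose and 2.92 times with galactose. Their summed level was 156, 155 and 147 FPKM.

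Both neutral exchanger genes rose at each step, Slc1a5 further than Slc1a4. Slc1a4 (XLOC_003649, minus strand of chromosome 11, 20302180 to 20332713) was put by the authors' deposited table at 19.4, 32.4 and 42.2 FPKM (high glucose, low glucose, galactose). Slc1a5 (XLOC_020071, plus strand of chromosome 7, 16781346 to 16798274) was listed there at 18.0, 35.2 and 64.7 FPKM. The levels of the pair were close in high glucose, and in galactose Slc1a5 stood at 1.54 times Slc1a4. Over the 2 steps the authors' deposited table gave log2 changes of 0.74 and 0.38 for Slc1a4 and of 0.97 and 0.88 for Slc1a5, all called (q = 0.000239, the authors' Cuffdiff test).

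Slc6a9, the glycine carrier gene, had the largest fold change from high glucose to either other medium among members above 1 FPKM in all 3 media. Per the authors' deposited table it had 7.60 FPKM with high glucose, 23.9 with low glucose and 54.4 with galactose. Low glucose was 3.14-fold and galactose 7.16-fold above high glucose (log2 1.65 and 2.84, both q = 0.000239, the authors' Cuffdiff test). Its locus (XLOC_015855, plus strand of chromosome 4, 117835187 to 117883698) overlaps Ccdc24 and B4galt2 on the other strand, and whether counting used strand is not given in the sources used here. Those genes share 1 locus of the authors' deposited table, listed at 28.0, 31.2 and 34.1 FPKM, a galactose to high glucose ratio of 1.22.

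**Figure D3:**
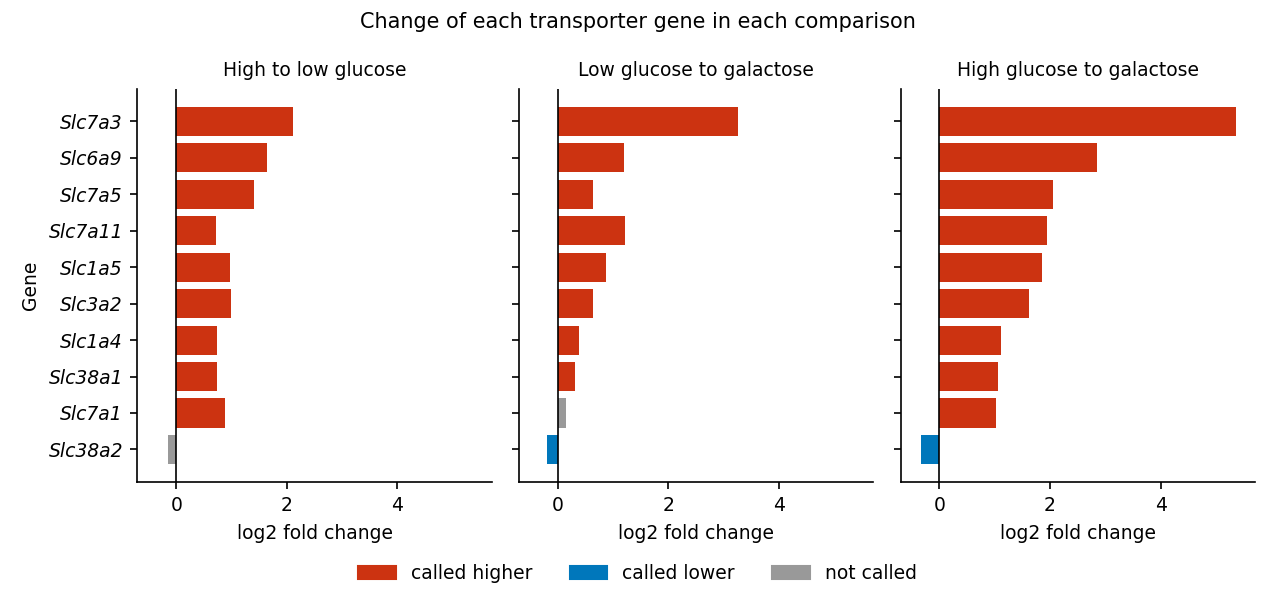
Bars give the log2 fold change of each gene in the authors' deposited table for the comparison named above each panel, coloured by call at q below 0.05. Slc7a11 and Slc7a3 have longer bars in the middle panel than in the left one, and Slc7a1 is grey in the middle panel.

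The promoters of members that moved together, and of the one that did not, were searched for 3 short motifs on both strands. The RefSeq table (GRCm38.p6) gave windows of 300 bases, 250 before a gene's start and 50 from it, for 6 of the 10 genes (Slc7a1, Slc7a11, Slc3a2, Slc38a2, Slc1a4 and Slc6a9), 9 windows in all. No entry was found for Slc7a3, Slc7a5, Slc38a1 and Slc1a5. The composite C/EBP-ATF element TGATGNAA is of the kind that ATF4 binds in genes of the amino acid response. It occurred in 2 of the 9 windows, those of Slc7a11 and Slc1a4, against 3.97% of all 32851 windows. In Slc7a11 it occurred at positions -66 to -59 and, on the other strand, -47 to -40 from the gene's start. In Slc1a4 it lay across the start, from -4 to 4. TGACNNNGC, the core of the antioxidant response element, occurred in 4 of the 9 windows, against 12.4% of all windows. These came from 3 of the 6 genes, Slc7a1, Slc38a2 and Slc6a9. Slc6a9 had 3 of the 9 windows and Slc7a1 had 2, so the windows are not independent units. The E-box CACGTG occurred in none of the 9 windows, against 7.15% of all, and no match overlapped another. A match is a string of letters and does not show binding. Sequence outside these windows was not searched, so a missing match says nothing about the rest of a gene. Slc7a1, Slc3a2 and Slc6a9 rose in galactose too and had no match to TGATGNAA. TGACNNNGC matched in Slc7a1 and Slc6a9, which rose, as well as in Slc38a2, which fell in galactose. The stretches below are printed 5′ to 3′ on the strand of the gene, with matched letters in capitals: TGATGNAA for Slc7a11 and Slc1a4 and TGACNNNGC for Slc38a2.
Slc7a11, chr3:50443614-50443713, minus strand, bases -100 to -1: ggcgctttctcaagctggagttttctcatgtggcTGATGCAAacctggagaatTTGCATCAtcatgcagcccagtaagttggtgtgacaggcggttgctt
Slc1a4, chr11:20332710-20332813, minus strand, bases -100 to 4: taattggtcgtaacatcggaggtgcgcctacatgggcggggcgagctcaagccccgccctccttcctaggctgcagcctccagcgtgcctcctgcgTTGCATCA
Slc38a2, chr15:96699729-96699828, minus strand, bases -100 to -1: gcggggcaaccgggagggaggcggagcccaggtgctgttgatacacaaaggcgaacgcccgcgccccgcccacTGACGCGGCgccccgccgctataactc

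Among the other plasma membrane carriers of amino acids that could be tested, more were called lower than higher. Of 33 such genes, 26 stayed under 1 FPKM in all 3 media. From high to low glucose 10 were tested, of which 0 were called higher and 7 lower by the authors' Cuffdiff test, with a median log2 change of -0.71. Of all tested loci, 18.3% were called higher and 18.2% lower there. From high glucose to galactose 11 were tested, 1 called higher and 8 lower, with a median of -0.55, beside 26.5% and 24.8% of all tested loci. From low glucose to galactose 9 were tested, 1 called higher, 4 lower and 4 not called, beside 17.4% higher and 16.0% lower of all. Of the tested genes, 7, 7 and 5 had at least 1 FPKM in a compared medium, and of these 5, 6 and 2 were called lower and 0 higher. The one called higher without this floor was Slc1a7, which the authors' deposited table put at 0.0245 FPKM in high glucose and 0.700 in galactose. Slc1a3, a glutamate carrier gene, was listed there at 9.09, 2.28 and 1.83 FPKM (high glucose, low glucose, galactose). Slc6a6, the taurine carrier gene and the most abundant of the list, was listed in that table at 114, 102 and 82.8 FPKM, and each step was called. Slc43a2 and Slc43a1, genes of facilitative leucine carriers, had log2 changes of -1.24 and -0.55 from high glucose to galactose, and Slc7a4, a relative of the cationic carriers, -1.41. At an unadjusted p below 0.05 none of the 10 tested genes was higher in low glucose.

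Across all 359 other loci with an Slc symbol, 46 of 183 tested (25.1%) were called higher and 61 (33.3%) lower from high glucose to galactose, beside 26.5% and 24.8% of all tested loci, with a median log2 change of -0.07. From high to low glucose 28 of 180 tested (15.6%) were called higher and 49 (27.2%) lower, beside 18.3% and 18.2% of all. Genes of amino acid carriers in lysosomes and other inner membranes had 1 of 12 called higher (8.33%) and 4 lower (33.3%) from high glucose to galactose. The one that rose was Slc38a7, a lysosomal glutamine and asparagine carrier gene, with levels of 25.7, 40.3 and 64.1 FPKM by the authors' deposited table (high glucose, low glucose, galactose). Slc36a4 and Slc38a6 were lower in galactose, with log2 changes of -1.19 and -0.72.

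A list named the GCN2 arm of amino acid sensing also held factors below GCN2 and some of their targets. From high glucose to galactose 10 of 12 tested genes were called higher (83.3%) and 0 lower, beside 26.5% and 24.8% of all tested loci (median log2 change 1.34). GCN2 activity was not measured, and its part in these changes was not tested. Impact, an inhibitor of GCN2 named after its values were seen, was among the genes called higher (log2 0.77). Eif2ak4, which encodes GCN2 itself, and Gcn1l1, its activator gene, were not called from high glucose to galactose. The authors' deposited table listed Eif2ak4 at 6.08 and 6.39 FPKM (q = 0.467) and Gcn1l1 at 27.0 and 29.7 FPKM (q = 0.0781). In that table Atf4 went from 294 to 437 and 585 FPKM over the 3 media, and each step was called. Ddit3 and Nupr1, stress-induced factor genes, had log2 changes of 1.70 and 1.85 from high glucose to galactose by the authors' deposited table, and Trib3, a pseudokinase gene, had 4.41. Of the mTORC1 arm, 11 of 31 tested were called higher (35.5%) and 7 lower (22.6%) from high glucose to galactose. The shares of all tested loci were 26.5% and 24.8%, and the median of the arm was 0.06. Sesn2, a leucine sensor gene that restrains mTORC1, rose from 8.55 to 22.4 and 38.7 FPKM by the authors' deposited table. Its relative Sesn1 fell there from 8.42 to 5.17 and 3.55 FPKM, and Gatsl2, of the arginine sensor family, had a log2 change of -1.23 in galactose.

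Among metabolic genes, 20 tested genes encode enzymes that make or use the carried amino acids. From high glucose to galactose 16 of the 20 were called higher and 2 lower (median log2 change 1.16). These shares were 80% and 10%, beside 26.5% and 24.8% of all tested loci. Psph, the last enzyme of serine synthesis, Asns, the asparagine synthetase, and Gpt2, an alanine aminotransferase, had deposited log2 changes of 2.38, 2.30 and 2.29. Of the glutathione list, which depends on cystine, 8 of 14 were called higher (57.1%) and 4 lower (28.6%) in the same comparison. Gclm, the regulatory subunit of glutamate-cysteine ligase, had 33.7, 44.7 and 95.6 FPKM by the authors' deposited table, with a larger log2 change from low glucose to galactose (1.10) than from high to low glucose (0.41), as for Slc7a11. Chac1, which degrades glutathione, had the larger change at the other step, 2.49 against 0.60. Ggt7 fell by 1.48 on the log2 scale from high glucose to galactose in the authors' deposited table. Nfe2l2, which encodes the antioxidant factor NRF2, was called higher in galactose by a small step, from 42.4 to 49.98 FPKM (log2 0.24, q = 0.0012).

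A list of 12 genes covered ubiquitin ligases and adaptors, arrestin-like ones among them, of the kind that take carriers off the surface. From high glucose to galactose 3 were called higher and 5 lower (25.0% and 41.7%, beside 26.5% and 24.8% of all tested loci). Those called higher were Nedd4l, Wwp1 and Arrdc3, named after their values were seen, with log2 changes of 0.24, 0.31 and 0.21. Txnip, an arrestin-like protein gene known as a brake on glucose uptake, had a deposited log2 change of -6.00, and Arrdc2 and Arrdc1 had -0.71 and -0.38. The levels of Txnip were 10.3, 6.21 and 0.160 FPKM (high glucose, low glucose, galactose), so the size of its fall rests on a very low value. These lists, too, were written with earlier results known.

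**Figure D4:**
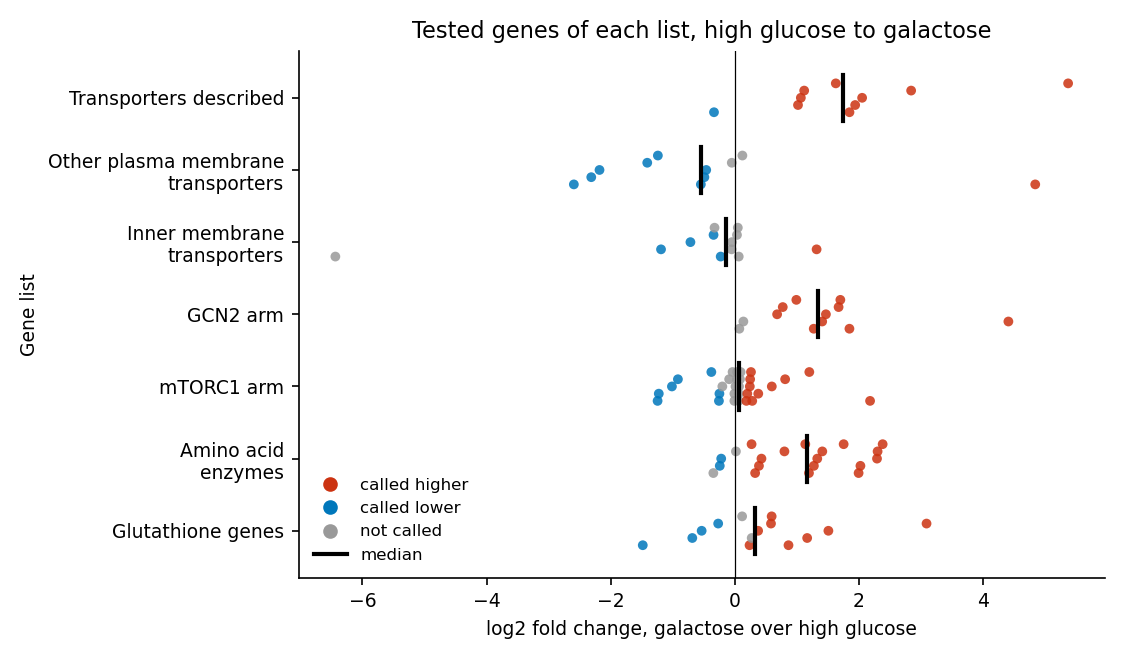
Each point is 1 tested gene, placed by its log2 fold change from high glucose to galactose in the authors' deposited table and coloured by call, and black bars are list medians. The transporters described here and the GCN2 arm lie mostly to the right (medians 1.74 and 1.34), and the other plasma membrane carriers mostly to the left (median -0.55), with Slc1a7 far right. GCN2 arm is the name of a list, and GCN2 activity was not measured.

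The 5 genes whose pattern was closest to the members' median were sought among 1478 other loci called in all 3 comparisons, with 1 symbol and at least 1 FPKM in every medium. Likeness was the Euclidean distance over 2 log2 changes, high to low glucose and low glucose to galactose, and so rests on 3 pooled values per gene. They were Sars, Atf5, Whrn, Xpot and Gars, at distances from 0.0913 to 0.125. Sars and Gars encode aminoacyl-tRNA synthetases, Atf5 a transcription factor, Xpot a nuclear exporter of tRNA and Whrn a scaffold protein.

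The identity of the cells was checked on marker genes fixed for this purpose. Of 8 myoblast markers, 7 were above 1 FPKM in at least 1 medium, and Vim is listed at 0 because it had too many reads for the tool. Their summed level was 809 FPKM with high glucose, 525 with low glucose and 419 with galactose, and Des made up 456, 308 and 268 FPKM of it. From high glucose to galactose 7 of 7 tested were called lower, beside 24.8% of all tested loci. Myf5 was not called from high to low glucose, and Myog was called higher from low glucose to galactose, at 1.42 and 2.78 FPKM. Of the 5 endothelial markers 5 were under 1 FPKM in all media, as were the 4 blood markers and the 3 epithelial markers that had a locus of their own, and Emcn and Emr1 are listed at 0. Fibroblast markers summed to 54.0, 33.6 and 19.6 FPKM, of which Pdgfrb made up 52.2, 32.2 and 18.3, with Thy1 and Lum listed at 0. Osteoblast and chondrocyte markers summed to 33.3, 26.9 and 25.99 FPKM, of which Sox9 made up 32.8, 25.8 and 25.6. Below 1 FPKM, Sp7 and Col2a1 of that list were called higher in low than in high glucose, with log2 changes of 1.36 and 1.43. Adipocyte markers summed to 11.9, 17.9 and 17.1 FPKM, nearly all of it Pparg, with Lep listed at 0. Neuron markers summed to 87.9, 104.7 and 103.2 FPKM, of which Tubb3 made up 81.2, 97.4 and 95.1, with Snap25 listed at 0. The part of these shifts in the carriers' values was not tested. In pooled RNA, fewer cells with a transcript and less transcript per cell cannot be told apart.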

How the data were processed

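The authors' deposited table is the output of Cuffdiff (version not given). Per the submitters' processing notes the tools were TopHat2 2.0.10, Cufflinks 2.2.0 and Cuffdiff, with genome build mm10; settings and normalization between libraries are not given in the sources used here. Per the file headers it gives FPKM per locus and group, the log2 fold change, a test score, and a p-value and q-value for each pair of groups. The authors' log2 fold change has no pseudocount. The deposited q-value matched a Benjamini-Hochberg adjustment over all 44006 tests. Counts of calls, medians, sums, ratios and motif matches were computed here with Python 3.11.15, pandas 2.3.3 and numpy 2.4.6, and figures with matplotlib 3.10.9. The functions for calls, adjustment and motifs were tested on simulated data. Symbols were matched after splitting on commas, taking the locus with the highest summed FPKM; 194 of 196 listed symbols were found. Start positions in the table count from 0 and were raised by 1.

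Members and lists were chosen with earlier results of these data known. Named genes were all members, up to 3 called genes per list with the largest change in galactose and at least 1 FPKM, called plasma membrane carriers, 7 sensing genes whatever their call, and the 5 nearest patterns.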

Additional observations from a re-analysis of the deposited data

How the results depend on the processing

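No paired analysis was possible because the table holds 1 pooled value per group, and for the same reason no library could be left out. When changes had to reach 1 on the log2 scale as well, members called higher numbered 3 from high to low glucose and 3 from low glucose to galactose, while from high glucose to galactose all 9 stood; those called lower numbered 0 in each comparison that had had 1. At q below 0.01, 0 members were called lower from low glucose to galactose. Every count moved by less than 1.5 times when a level of 1 FPKM in one group was required, when q-values were adjusted per comparison and when rows with several symbols were dropped. The median from high to low glucose was 0.78 with a pseudocount of 1 FPKM. Dividing by the sum of all loci shifted every log2 value from high glucose to galactose by -0.17, and the members' median was then 1.56. Without Slc3a2, a choice made after seeing the data, that median was 1.85. Of the 9 that stood, Slc7a1, Slc38a1 and Slc1a4 were under 1 after division by the sum, at 0.85, 0.89 and 0.94. Slc7a1 was also under 1 with the pseudocount, at 0.98. A median was taken as moved when it shifted by 0.1 or more. No member changed direction under the pseudocount or the scaling. Depth is unknown, and Slc7a3, under 1 FPKM in both glucose media, changed most with the pseudocount: its log2 values were then 0.36, 2.17 and 1.81.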
